A study of Mus musculus with 6 samples.

Results

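Arntl, Clock, Npas2 and Rora, which encode transcription factors on the activating side of the circadian clock, were followed in the livers of male C57BL/6 mice. They were found as the rows of the deposited expression table whose gene symbol equals one of the 4 names. These were 6 of the 22203 probe sets with a symbol, 1 each for Arntl, Clock and Npas2 and 3 for Rora. Untreated animals aged 8 weeks were measured on Clariom S arrays, 3 livers labelled WT and 3 labelled HMGB2-KO, and the titles number the livers 1 to 3 within each genotype. The chromatin protein HMGB2 bends DNA. The labels do not describe the knockout allele or say whether the WT mice were littermates. Nothing in the labels says that the livers came from separate animals, and p-values therefore reflect only how far these arrays differ, technical variation included. The 4 genes were chosen on earlier results of these same arrays, by liver number and by genotype, so neither comparison is independent of the choice.

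The mammalian clock is a loop of transcription factors. BMAL1, the product of Arntl, pairs with CLOCK or its close relative NPAS2, and the pair binds E-box sequences and switches on the Per and Cry repressors, the Nr1d1 and Nr1d2 genes for the REV-ERB receptors, and output genes such as Dbp. RORalpha, the product of Rora, and the REV-ERB receptors compete for ROR response elements, at which ROR proteins activate and REV-ERB proteins repress, and Arntl is the best known target. In mouse liver the mRNAs of Arntl and Npas2 swing over the day roughly opposite to those of Nr1d1 and Dbp, while Clock swings less. The labels used here give no hour of collection and no feeding state.

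The Arntl start region carries the known elements for ROR and REV-ERB receptors, so it is shown with the start regions of the other members. Windows ran from 250 bases before to 50 bases after each RefSeq start site in build GRCm38.p6, and 7 such windows belong to the 4 genes. Searched on both strands were the ROR half-site AGGTCA, GTAGGTNA, the core shared by the Arntl elements, which overlaps the half-site where it ends in TCA, the E-box CACGTG and the D-box TTATGTAA. Capitals mark matches to any of these 4 motifs.
Arntl, chr7:113207261-113207560, plus strand: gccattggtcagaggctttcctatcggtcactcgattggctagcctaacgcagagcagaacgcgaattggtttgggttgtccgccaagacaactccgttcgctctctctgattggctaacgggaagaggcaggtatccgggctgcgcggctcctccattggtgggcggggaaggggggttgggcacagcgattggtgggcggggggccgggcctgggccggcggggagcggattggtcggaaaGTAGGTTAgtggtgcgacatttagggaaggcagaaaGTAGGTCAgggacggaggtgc
Npas2, chr1:39194022-39194321, plus strand: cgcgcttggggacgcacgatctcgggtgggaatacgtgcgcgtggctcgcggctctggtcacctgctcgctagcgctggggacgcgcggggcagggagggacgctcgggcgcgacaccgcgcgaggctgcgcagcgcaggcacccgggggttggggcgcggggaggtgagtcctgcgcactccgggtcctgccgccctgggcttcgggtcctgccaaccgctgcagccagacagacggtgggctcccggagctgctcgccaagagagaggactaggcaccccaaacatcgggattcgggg
Clock, chr5:76303453-76303752, minus strand: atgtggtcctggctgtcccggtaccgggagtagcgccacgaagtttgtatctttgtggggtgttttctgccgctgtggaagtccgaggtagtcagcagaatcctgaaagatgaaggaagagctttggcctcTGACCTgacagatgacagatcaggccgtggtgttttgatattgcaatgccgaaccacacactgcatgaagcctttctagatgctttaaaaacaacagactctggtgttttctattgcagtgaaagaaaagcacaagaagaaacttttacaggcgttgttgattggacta
Rora, chr9:68653536-68653835, plus strand: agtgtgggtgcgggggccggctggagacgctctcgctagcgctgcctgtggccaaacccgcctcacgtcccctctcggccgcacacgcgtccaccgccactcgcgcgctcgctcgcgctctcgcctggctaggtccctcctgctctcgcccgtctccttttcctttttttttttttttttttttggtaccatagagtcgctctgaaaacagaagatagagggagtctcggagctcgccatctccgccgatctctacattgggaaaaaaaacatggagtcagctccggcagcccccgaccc
The Arntl window carried GTAGGTTA from position -7 and GTAGGTCA from position 30, counted from the start site. The other Arntl window, which begins 5′ of the one shown and overlaps it, held GTAGGTTA alone. This core occurred in 702 of 32851 windows of this length over all RefSeq genes (2.14%). It was defined from the known Arntl elements, so its match in Arntl was fixed in advance. In Clock, 1 of 3 windows, the one shown, held the half-site, as TGACCT from position -119, and the half-site occurred in 16.3% of all windows. The windows of Npas2 and Rora held none of the 4 motifs, and neither an E-box, found in 7.15% of all windows, nor a D-box, found in 0.938%, lay in any window of the members. A match is a description of letters and not a binding site.

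Values below are log2 values that the authors had centred gene by gene, so 0 is a reference level for that gene and levels cannot be compared between genes. They compare arrays within a probe set, and a difference of 1 is a doubling if the base is 2 as its range implies. WT replicate 2 stood apart from the other arrays, with a median over all probe sets of 0.26 against -0.05 to 0.01 and an SD of 0.53 against 0.32 to 0.36. The median probe set lay at -0.12 in HMGB2-KO relative to WT. Hmgb2, the targeted gene, stood between 0.38 and 0.62 in WT and between -0.70 and -0.38 in HMGB2-KO, lower in 3 of 3 arrays, with a change of -1.01 ± 0.15 (SE) and a limma adjusted p of 0.469. The hepatocyte markers Alb, Ttr, Apoa1, Cps1, Serpina1a and Tat, which define the tissue, had a list median between -0.16 and 0.06 in the 6 arrays after each array was centred on its median. The -0.16 belonged to WT replicate 2. As deposited, Alb, Ttr, Apoa1 and Serpina1a read 0.01, 0.09, 0.08 and 0.10 there, against 0.01, 0.08, 0.08 and 0.06 in WT replicate 1. Cps1 and Tat were higher there, at 0.37 and 0.81 against 0.02 and 0.21. The raised median of that array was not seen in every gene, which limits its centred values. Centring gene by gene removes brightness, so whether any marker was absent could not be read. Fewer cells of a type and less RNA per cell cannot be told apart in whole liver.

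Arntl varied by more than 4-fold between livers and followed the liver number, not the genotype. BMAL1 is the one clock activator without which the loop stops in mice. In WT its value was -0.98, -1.46 and 0.57 in livers 1, 2 and 3, and in HMGB2-KO it was -1.07, -2.03 and 0.67. Both livers numbered 3 were high and the 4 livers numbered 1 and 2 were low, with no overlap, and within each genotype liver 2 was the lowest. The mean of livers numbered 3 exceeded that of livers numbered 1 and 2 by 2.01 (4.02-fold), with an SD of 0.48 among the latter (n = 4). Taken by genotype the difference was 1.79 in WT (3.46-fold) and 2.22 in HMGB2-KO (4.66-fold). Of all 22203 probe sets, 31 differed by more than Arntl in either direction. The liver number was already known to matter in these data when the 4 genes were listed, so differences by number are given as a description and carry no test.

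Npas2 showed the same arrangement. NPAS2 is the CLOCK relative that can take its place beside BMAL1. The WT values were -1.32, -0.88 and 0.50 in livers 1, 2 and 3, and the HMGB2-KO values were -1.43, -1.42 and 0.44. Livers numbered 3 again lay above the other 4 without overlap, by 1.73 (3.32-fold, SD 0.26 among the 4), with 1.60 in WT and 1.87 in HMGB2-KO. Unlike Arntl, liver 2 was not the lowest in either genotype: it stood above liver 1 by 0.43 in WT, or 0.19 once arrays were centred, and by 0.01 in HMGB2-KO. The number of probe sets with a larger difference was 52.

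Clock moved in the same direction with a much smaller span. CLOCK is the histone-acetylating partner of BMAL1. Its values were -0.19, -0.71 and -0.09 in WT livers 1, 2 and 3 and -0.46, -0.69 and 0.09 in the HMGB2-KO livers. Livers numbered 3 stood above the others, but WT liver 1 came within 0.10 of WT liver 3, or 0.16 on centred arrays, less than the SD of 0.24 among livers numbered 1 and 2. The mean difference by number was 0.51 (1.43-fold), with 0.36 in WT and 0.67 in HMGB2-KO, and 1650 probe sets differed by more. Livers 2 were the lowest in both genotypes, as for Arntl.

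Rora did not follow the liver number. RORalpha is the receptor that activates Arntl through the elements shown above. The probe set TC0900000892.mm.2 read -0.27, 0.18 and -0.37 in WT livers 1, 2 and 3 and -0.17, -0.39 and 0.03 in HMGB2-KO livers 1, 2 and 3. The 2 further Rora probe sets, which the array's names leave unmapped, ranged from -0.35 to 0.38 and from -0.31 to 0.28. Livers numbered 3 overlapped the others in all 3 probe sets, with mean differences of -0.01, -0.17 and -0.22, each less than the SD of 0.25 to 0.27 among livers numbered 1 and 2. The highest value of each probe set came from WT replicate 2, the array with the raised median.

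**Figure D1:**
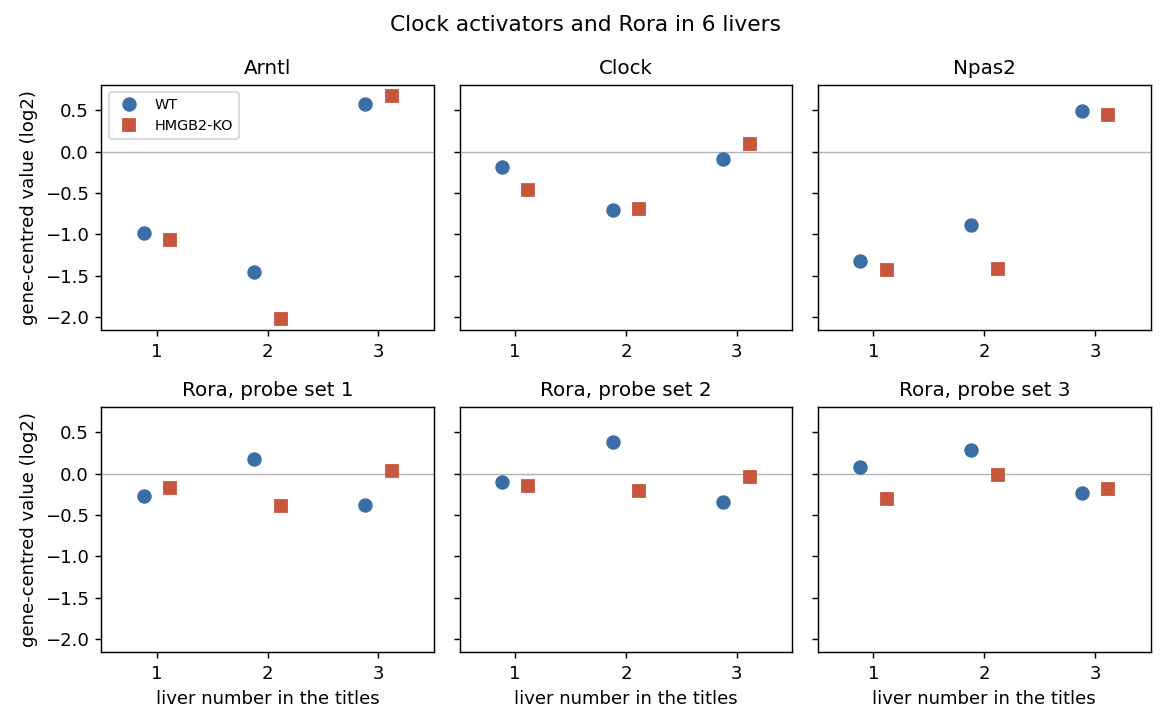
Gene-centred log2 value (vertical axis) against the liver number in the titles (horizontal axis) for the 6 probe sets, with WT livers as circles and HMGB2-KO livers as squares, 1 array each. In Arntl and Npas2 both livers numbered 3 sit between 0.44 and 0.67 while the other 4 lie between -2.03 and -0.88, and the Rora probe sets stay between -0.39 and 0.38.

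Set against all probe sets, 3 of the 6 member probe sets had both livers numbered 3 above all 4 others, where 4.46% of all probe sets did, or 10.0% on centred arrays. 0 of 6 had them below, against 14.0% of all as deposited and 9.29% on centred arrays. Since the genes were listed with this contrast known, nothing is read from the count. Differences of more than 1 in the mean were found for 1.38% of all probe sets and of more than 2 for 0.144%. Arntl passed both limits, Npas2 the first, and Clock and Rora neither.

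**Figure D2:**
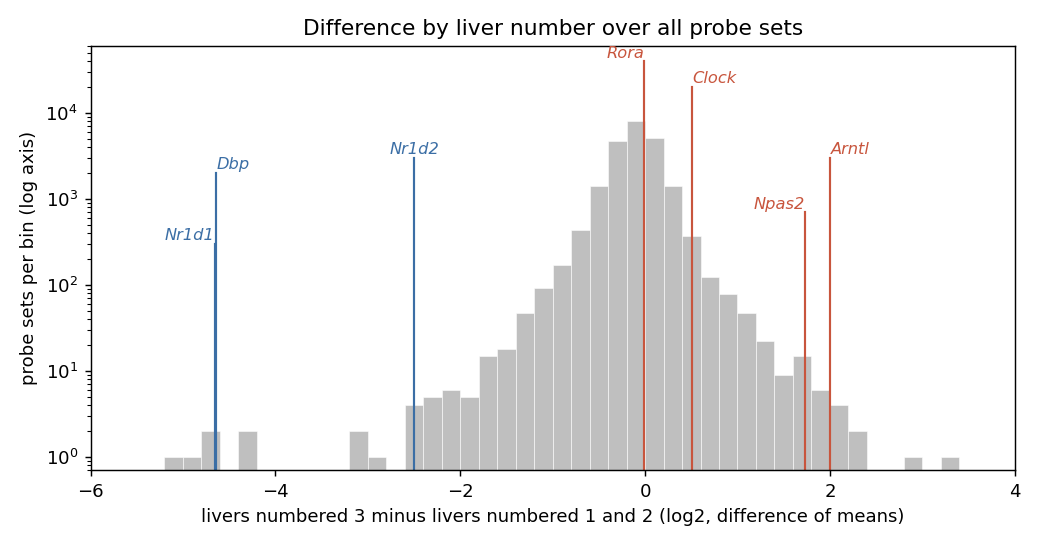
Number of probe sets (vertical axis, log scale) by the difference between the mean of the 2 livers numbered 3 and the mean of the 4 livers numbered 1 and 2 (horizontal axis, log2), over all 22203 probe sets with a symbol. Lines mark the members (Rora by its probe set TC0900000892.mm.2) and 3 genes of the fixed lists: Arntl at 2.01 and Npas2 at 1.73 lie in the sparse right tail, Clock at 0.51 on the right shoulder and Rora at -0.01 in the bulk, Nr1d2 at -2.50 in the left tail, and Nr1d1 at -4.65 and Dbp at -4.64 farther left.

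The genotype comparison was the design of the series, and none of the members differed between HMGB2-KO and WT livers beyond the spread. limma called 0 of the 6 probe sets at an adjusted p of 0.05, where 0% of all probe sets were called, and 0 of 6 at an unadjusted p under 0.05, where 4.92% were (1092 of 22203). At 1.5-fold and an unadjusted p under 0.05 it called 0 of 6, where 0.0180% of all probe sets were higher and 1.60% lower. In 0 of 6 did the genotypes separate without overlap, against 11.7% of all probe sets. The Arntl mean was -0.62 ± 1.06 (SD, n = 3) for WT and -0.81 ± 1.37 for HMGB2-KO, which differ by -0.19 ± 0.73 (SE) with a limma adjusted p of 0.972. For Npas2 the means were -0.57 ± 0.95 and -0.80 ± 1.08, which differ by -0.24 ± 0.61 (SE, limma adjusted p 0.953). The 95% interval of the change ran from -1.90 to 1.52 for Arntl and from -1.66 to 1.19 for Npas2. These intervals come from a fit without the liver number, so the spread by number is part of them. Clock changed by -0.02 ± 0.25 (SE, limma adjusted p 0.992, interval -0.60 to 0.56). The mapped Rora probe set changed by -0.02 ± 0.20 (SE, limma adjusted p 0.987, interval -0.48 to 0.43), and the 2 unmapped ones by -0.11 ± 0.20 and -0.22 ± 0.18 (adjusted p 0.932 and 0.852). Relative to the median probe set these changes were -0.06 for Arntl, -0.11 for Npas2, 0.10 for Clock and 0.10 for the mapped Rora probe set.

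For Arntl and Npas2, livers of the same number in the 2 genotypes lay closer to each other than livers numbered 3 lay to the others of their genotype; livers 1 and 2 of 1 genotype were in part as close. Arntl in HMGB2-KO minus WT was -0.09 for the livers numbered 1, -0.57 for those numbered 2 and 0.10 for those numbered 3. For Npas2 the 3 differences were -0.11, -0.54 and -0.06. On centred arrays the differences for the livers numbered 2, which include WT replicate 2, were -0.27 and -0.23. Clock gave -0.27, 0.02 and 0.18, and the mapped Rora probe set 0.10, -0.57 and 0.41, so that neither kept 1 sign. Each is a difference of 2 arrays and has no test.

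**Figure D3:**
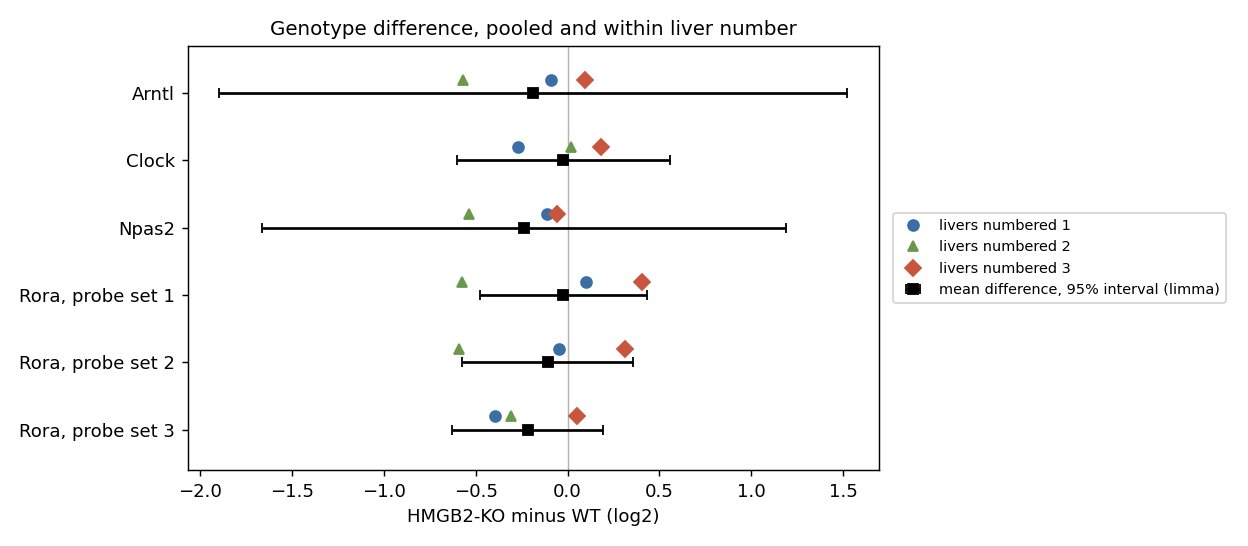
HMGB2-KO minus WT (horizontal axis, log2) for the 6 probe sets (vertical axis), as the mean difference over 3 livers per genotype with its 95% interval from limma (black squares) and as the single difference between livers of the same number (coloured points). All 6 intervals include 0, and those of Arntl and Npas2 are wider than the interval of Clock. Rora probe set 1 is TC0900000892.mm.2, and 2 and 3 are the unmapped ones in the order of their IDs.

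Other genes of the pathway were taken from 7 fixed lists with 41 genes, and all 41 had a mapped probe set. By genotype, limma called 0 of 41 at an adjusted p of 0.05, and at the unadjusted level 1 was lower (Rorb, -0.47 ± 0.20 SE, limma adjusted p 0.85) and 0 were higher, where 4.92% of all probe sets passed in either direction. A second, unmapped probe set of Rorb was not counted. By liver number, both livers numbered 3 lay above the other 4 in 4 of the 41 and below them in 15, or in 8 and 13 on centred arrays. Of all probe sets, 4.46% lay above and 14.0% below as deposited, and 10.0% and 9.29% on centred arrays.

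Among relatives of the members, Rorb, a receptor best known from retina and brain, differed by -0.01 by liver number, and Arntl2, which encodes the BMAL1 relative BMAL2, by -0.13.

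The repressors mostly stood on the opposite side from Arntl. Of 8 genes, 6 were lower in both livers numbered 3 than in any other liver and 1 was higher, with a list median of -1.40 by number against -0.09 over all probe sets. The shares over all probe sets were 14.0% lower and 4.46% higher. Nr1d1, which encodes REV-ERBalpha, read 3.28, 3.29 and -1.61 in WT and 2.84, 2.86 and -1.56 in HMGB2-KO, 25.2-fold lower in livers numbered 3. Nr1d2, which encodes REV-ERBbeta, was 5.64-fold lower there. The 1 repressor gene on the side of Arntl was Cry1, at -0.50, -0.45 and 0.26 in WT and -0.54, -0.52 and 0.65 in HMGB2-KO, and Per2 overlapped at a difference of 0.25; both are named after their values were seen. By genotype the list median was 0.06, and the members with the smallest p, Per2 and Per1, changed by 0.15 ± 0.23 and 0.38 ± 0.61 (SE, limma adjusted p 0.92 for each).

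Output factors and E-box targets split further. Dbp, a PAR bZIP factor switched on by BMAL1 and CLOCK, read 3.66, 5.24 and 0.05 in WT and 4.38, 5.50 and 0.06 in HMGB2-KO, 25.0-fold lower in livers numbered 3. Of the 6 output factors, 3 lay below in livers numbered 3 (Dbp, Tef and Bhlhe41, or 2 without Tef on centred arrays) and 1 above, Nfil3, a repressor of D-box genes, at a difference of 0.76. Among all probe sets, 14.0% lay below and 4.46% above as deposited, and 9.29% and 10.0% on centred arrays, shares that hold for the E-box targets too. Bhlhe41, which encodes the E-box repressor DEC2, differed by -1.23, and in the genotype comparison by -0.44 ± 0.48 (SE, limma adjusted p 0.88). Hlf changed by -0.34 ± 0.26 (SE) with genotype. Among 6 E-box targets, Por, the electron donor of cytochrome P450 enzymes, and Gys2, the liver glycogen synthase, lay below in livers numbered 3, by 1.82 and 1.08 in the negative direction (-1.82 and -1.08), and the other 4 overlapped. Por had the smallest genotype p of that list at -0.83 ± 0.73 (SE, limma adjusted p 0.86), followed by Wee1, a cell cycle kinase, at 0.24 ± 0.21 (SE).

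Ciart and Usp2 separated livers 1 from livers 2, and are named after their values were seen. In Ciart livers numbered 3 lay below all others as well, while in Usp2 they overlapped livers 1. Ciart, a repressor of BMAL1 and CLOCK, read 0.43, 3.00 and 0.02 in WT livers 1, 2 and 3 and 0.51, 2.76 and 0.11 in the HMGB2-KO livers. Usp2, a deubiquitinase, read -0.87, 1.35 and -0.12 in WT and -0.47, 1.83 and -0.73 in HMGB2-KO. Livers 2 were the highest in both genotypes, by 2.33 and 2.26 over livers 1 for Ciart and by 1.98 and 2.31 for Usp2 on centred arrays. They were not the only such genes: on that scale Dbp differed by 1.35 and 1.14 and Per3 by 1.06 and 0.71. No count over the lists was made. Arntl went the other way between the same livers, with liver 2 below liver 1 by -0.72 in WT and -0.95 in HMGB2-KO on that scale, and Npas2 differed by 0.19 and 0.02. Per gene this is 1 liver against 1 in each genotype, with no test.

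Kinases, cofactors and other PAS proteins had smaller differences by liver number than Arntl. The counts below stand against 14.0% of all probe sets below and 4.46% above as deposited, and 9.29% and 10.0% on centred arrays. Of 7 clock kinases and ubiquitin ligase parts, 0 lay apart by liver number as deposited, and 3 lay above on centred arrays (Gsk3b, Btrc and Fbxw11, by 0.28 or less as deposited). The largest difference of that list was -0.34, for Csnk1e, a kinase of PER proteins. By genotype Fbxw11 stood at -0.22 ± 0.17 and Gsk3b at -0.18 ± 0.14 (SE). Of 6 ROR and REV-ERB cofactors, 1 lay below, Tbl1xr1, part of the NCOR complex, at -0.37, and the coactivator gene Ppargc1a differed by -0.96 with overlapping livers. That 1 of 6 is near the share over all probe sets, and nothing is read from it. Ncoa2, a coactivator gene, had a genotype change of 0.22 ± 0.14 (SE). Of the 5 PAS relatives and partners, Arnt2 (-0.58) and the deacetylase gene Sirt1 (-0.40) lay below and Arnt (0.29) above, as deposited and on centred arrays, with a list median of -0.31 against -0.09 over all probe sets. Ahr had the smallest genotype p at -0.31 ± 0.22 (SE). All limma adjusted p of these lists were 0.85 or more.

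**Figure D4:**
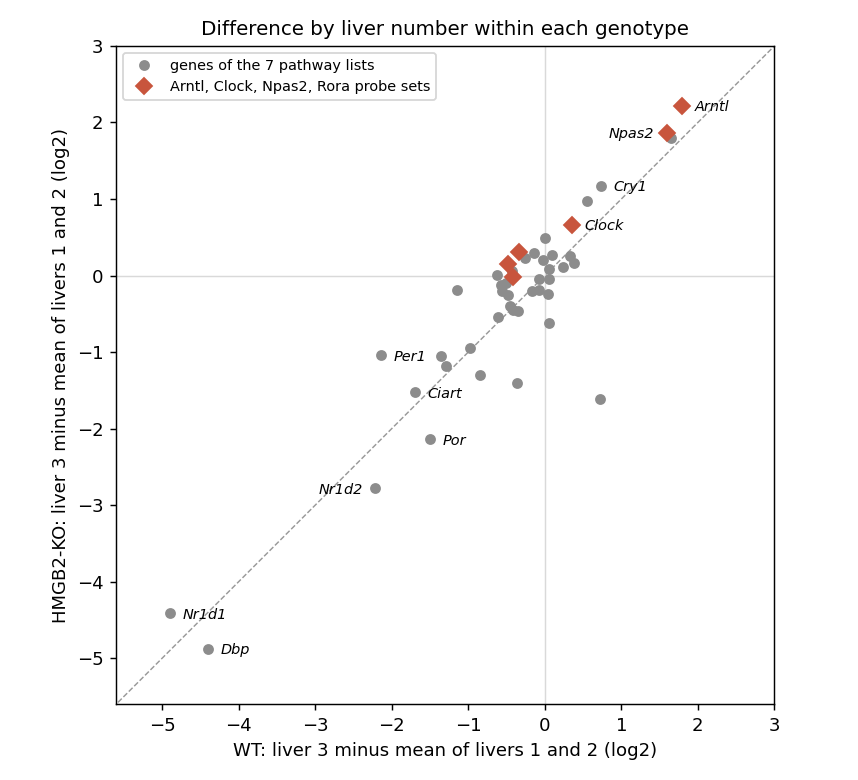
Liver 3 minus the mean of livers 1 and 2 in HMGB2-KO (vertical axis, log2) against the same difference in WT (horizontal axis, log2), for the 6 member probe sets (diamonds) and the 41 genes of the pathway lists (circles), with a dashed line of equality. Arntl lies at 1.79 and 2.22 and Npas2 at 1.60 and 1.87, while Nr1d1 and Dbp lie at the opposite corner. Both axes use 3 livers of 1 genotype, so each point rests on 6 arrays.

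The genes with the profile most like a member were found by the root-mean-square difference over the 6 arrays, after each array was centred on its median and each gene on its mean. Nearest to Arntl were Lgalsl, a galectin-like gene (0.17), Chka, a choline kinase (0.18), and Grk5, a kinase of G protein-coupled receptors (0.24). Lgalsl read -0.37, -0.59 and 1.06 in WT and -0.45, -1.07 and 1.21 in HMGB2-KO. Nearest to Npas2 were Hamp2, a hepcidin gene (0.13), and Cml5 (0.22). Arntl and Npas2 were 0.41 apart, farther from each other than each was from these genes, and Clock was 0.74 from Arntl. Few genes came close to the first pair: 2 of 17602 named probe sets lay within 0.2 of Arntl and 2 within 0.2 of Npas2. The distance is absolute, so such counts depend on how far a profile varies as well as on its shape.

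Clock and Rora varied less, and more probe sets lay within the same distance of them. Nearest to Clock were Tuba1b, a tubulin (0.06), Tmem218 (0.07) and Pdgfa, a growth factor (0.07), and 246 named probe sets lay within 0.2. The mapped Rora probe set had 5576 within 0.2 and its nearest were Pet100, Lrrc46 and Pus3, at 0.04 to 0.05. Its own root-mean-square deviation was 0.15, against 0.37 for Clock, 0.86 for Npas2 and 1.05 for Arntl. A flat profile would therefore lie within 0.2 of that Rora probe set. The 3 Rora probe sets were 0.10 to 0.22 from each other.

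Markers of the cell types that a liver sample can hold were read beside these results. Of 40 genes in 8 lists, 38 had a probe set of their own, and by liver number 1 lay above (Cd5l) and 2 below (Lyve1 and Des), against 4.46% and 14.0% of all probe sets. On centred arrays 3 lay above (Ttr, Adgre1 and Cd5l, of which Adgre1 and Cd5l mark Kupffer cells and macrophages) and 1 below (Des), against 10.0% and 9.29%. These genes are named after their values were seen. Kupffer cell and macrophage markers had list medians of 0.39 and 0.55 in the livers numbered 3 and 0.16 to 0.45 in the other 4 on centred arrays. Sinusoidal endothelial markers had medians of 0.53 to 0.83 in the livers numbered 3 and 0.64 to 0.80 in the others. These ranges overlap, and the part of cell composition in the differences of Arntl and Npas2 was not tested. By genotype, 0 of 38 markers passed the adjusted test, and 2 were higher at an unadjusted p under 0.05 (Pecam1 at 0.43 ± 0.17 and Spp1 at 0.55 ± 0.20 SE, limma adjusted p 0.85 for each). At that unadjusted level 4.92% of all probe sets passed in either direction, so nothing is read from the 2. Their lists did not move with them: the median change was -0.03 for sinusoidal endothelial and -0.11 for cholangiocyte markers, against -0.12 over all probe sets.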

How the data were processed

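Total RNA of 6 livers was labelled with biotin and hybridised to 1-colour Clariom S mouse arrays, per the labels' protocols. The authors deposited 1 table of log2 values with 22206 rows, centred gene by gene; the series matrix holds the same values (largest difference 0.0). The log base is inferred from the range, and the software, background correction and genome build are not stated in these sources. That 24.2% of probe sets held an exact opposite pair of values and 8.33% a median of 0 shows a zero set on more arrays than these 6. Dim probe sets could not be filtered, since brightness is lost.

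Titles gave the genotype of each sample. All 22203 probe sets with a symbol, 832 of them with several, were fitted as deposited. The fit used limma 3.58.1 in R 4.3.3 (lmFit and eBayes, genotype as the only term, two-sided, Benjamini-Hochberg adjustment at 0.05). Differences by liver number are differences of means without a test. The number of arrays limits the precision.

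Members and lists were chosen with earlier results of these data known. Named were the members, Hmgb2, per pathway list the 2 genes with the largest difference by number and the 2 with the smallest genotype p, and the 3 genes most like each member, without predicted genes, sensory receptors and small RNAs; some genes that this rule names are not reported here. List counts used mapped probe sets with 1 symbol. Alternatives were quantile normalization, centring of arrays, array weights, robust eBayes, an intensity trend, averaging per symbol, the liver number as a block or a term for number 3, leaving out each array, and the series matrix. A block on centred arrays was added after seeing the data. Promoter windows come from RefSeq on GRCm38.p6, matched by symbol for 4 of 4 genes.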

Additional observations from a re-analysis of the deposited data

Results flagged for a closer look

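For 2 of the 3 Rora probe sets the WT and HMGB2-KO livers numbered 3 lay on opposite sides of their own genotype. In TC0900000892.mm.2, WT liver 3 was below both other WT livers and HMGB2-KO liver 3 above both other HMGB2-KO livers, and the difference by number was 0.64 larger in HMGB2-KO. The first unmapped Rora probe set gave 0.63 in the same direction. Both values are as deposited and take in WT replicate 2, the array with the raised median. On centred arrays TC0900000892.mm.2 read -0.28, -0.07 and -0.33 in WT livers 1, 2 and 3. In the HMGB2-KO livers it read -0.13, -0.34 and 0.08, so WT liver 3 lay close to WT liver 1. Each rests on 1 liver against 2 per genotype, and the difference was not tested.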

How the results depend on the processing

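The differences by liver number of Arntl, Npas2, Clock and Rora moved by less than the SD between livers under every alternative run for them: without 1 array they ran from 1.79 to 2.14 for Arntl, 1.68 to 1.86 for Npas2, 0.42 to 0.62 for Clock and -0.21 to 0.19 for Rora. No member passed the adjusted threshold by genotype under any of the 16 alternatives, where the smallest adjusted p was 0.808 for Arntl, 0.707 for Clock, 0.798 for Npas2 and 0.787 for the mapped Rora probe set. Their signs were not stable. Without 1 array the change ran from -0.93 to 0.42 for Arntl, -0.86 to 0.30 for Npas2, -0.24 to 0.15 for Clock, -0.13 to 0.14 for Rora and -0.27 to 0.092 for the first unmapped Rora probe set. Arntl turned positive without WT replicate 3 (0.41) and without HMGB2-KO replicate 2 (0.42). Quantile normalization gave 0.093 for Clock, 0.12 for Rora and 0.046 for that unmapped probe set, centred arrays gave 0.10, 0.10 and 0.0098, and a block on centred arrays the same 0.10, 0.10 and 0.0098. Array weights gave 0.25 for Npas2 and 0.064 for Rora. The cause of the sign changes was not tested. Over all probe sets 0 passed the adjusted threshold, against 6 with array weights. The count at 1.5-fold and an unadjusted p under 0.05 was 360 (4 higher, 356 lower), 200 with quantile normalization (27 higher, 173 lower), 190 on centred arrays (13 higher, 177 lower), 580 with array weights (133 higher, 447 lower), and 211 (without WT replicate 2) to 969 (without WT replicate 3) with 1 array left out, with 666 without WT replicate 1.

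With the replicate block the genotype changes were -0.19 ± 0.18 for Arntl, -0.02 ± 0.16 for Clock, -0.24 ± 0.17 for Npas2 and -0.02 ± 0.22 for Rora (SE, limma adjusted p 0.843, 0.984, 0.798 and 0.987), with 0 probe sets past the adjusted threshold and 484 in the looser count. Deviations from the genotype means correlated across probe sets at 0.02, 0.13 and 0.27 for same-numbered livers 1, 2 and 3. Taken from a mean of 3 arrays, the deviations within a genotype are not independent. Those of WT replicates 1 and 3 correlated with those of WT replicate 2 at -0.63 and -0.68. The values therefore cannot decide whether the numbers are pairs. Against the 3 arrays of the other genotype, 5 of 6 arrays correlated best on these deviations with the array of their own number. This count rests on the same dependent deviations, and a pair can enter it from both sides. For WT replicate 1 the match was 0.02, against -0.02 and 0.004 for the other numbers. This is read from the data, not the design, and whether livers of 1 number share something was not tested.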
